A study of Mus musculus with 30 samples.

Results

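The change that mouse haematopoietic stem cells (HSCs) undergo over 1 day in culture was set, gene by gene, against the change they undergo in the marrow 6 days after 5-fluorouracil (5-FU). This comparison rests on 16 of the 30 libraries of the series, 4 in each of 4 groups. In the 5-FU experiment these are HSCs of untreated mice (titled Untreated) and HSCs taken on day 6 after 5-FU (5-FU_6_days). In the culture experiment they are HSCs of untreated mice, either Uncultured or after 1-day_culture. For each gene the log2 change of day-6 over untreated HSCs was subtracted from the log2 change of cultured over uncultured HSCs, and the result is called the difference of changes below. Of 21991 genes with an exon in the files, 12981 passed the filter on low counts and were tested. Beyond that filter, no measured value was used to choose genes for the comparison as a whole.

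All 16 libraries were made from 100 cells each, sorted as CD150+ CD48- EPCR+ Lineage- from C57BL/6 bone marrow at an age of 8 to 10 weeks. The dose and route of 5-FU, and the medium, cytokines and oxygen of the culture, are absent from the labels. The labels also do not say whether the libraries of a group came from separate animals or from pooled marrow, so the p-values measure the spread between these samples, which may be technical. The day-6 cells were selected by the sort after treatment, whereas for cultured HSCs the sources used here do not say whether they were sorted again after culture.

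Most adult HSCs are quiescent, with little division, low protein synthesis and low mitochondrial activity. 5-FU, a pyrimidine analogue, kills dividing blood progenitors, and the surviving HSCs are then drawn into division inside the marrow. HSCs placed in culture also leave quiescence, but away from the marrow niche with its adhesion molecules, neighbouring cells and circulating lipids. Genes for sterol and fatty acid synthesis are controlled by the SREBP transcription factors, which are released from the endoplasmic reticulum when membrane sterol is low, while LXR factors raise sterol export when sterol is high.

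The libraries held 5.21 to 9.11 M exon reads and replicates correlated with Pearson's r of 0.946 to 0.986 over log2 CPM (CPM are exon reads scaled to a common library size). The HSC markers Procr, Slamf1, Mecom, Gata2 and Kit were read in all 4 groups. Transcripts of other blood cells were present in a part of the libraries. The summed level of 20 macrophage and monocyte genes was 4229 CPM in day-6 replicate 1 against 569 to 898 CPM in the other day-6 libraries, 518 to 739 CPM in untreated, 484 to 525 CPM in uncultured and 350 to 393 CPM in cultured HSCs. The summed level of 23 granulocyte genes was 2492 CPM in untreated replicate 3 and 2803 and 2036 CPM in uncultured replicates 1 and 4, against 149 to 580 CPM elsewhere. The summed level of 24 erythroid genes was 3735 to 7944 CPM in untreated HSCs and 4135 and 6259 CPM in uncultured replicates 1 and 3, against 1075 to 1677 CPM in the other libraries. In bulk libraries, fewer cells of a type and less RNA per cell cannot be told apart.

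Reads in introns took 66.5 ± 0.940% of gene reads in uncultured and 56.4 ± 0.157% in cultured HSCs (SD, n = 4, exact two-sided permutation test, p = 0.02857, the smallest that 4 against 4 allows, adjusted p = 0.03429 over 6 tests). The share was 65.1 ± 1.28% in untreated and 57.5 ± 0.867% in day-6 HSCs (SD, n = 4, exact permutation p = 0.02857, adjusted p = 0.03429). It thus fell in both experiments, and its part in the results on single genes was not tested.

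Most genes that moved in culture moved the same way after 5-FU. At an adjusted p under 0.05 (Benjamini-Hochberg, edgeR's quasi-likelihood test, used for every gene below), 8704 genes (67.1%) differed between cultured and uncultured HSCs, 4351 up (33.5%) and 4353 down (33.5%). Between day-6 and untreated HSCs 7141 (55.0%) differed, 3745 up (28.8%) and 3396 down (26.2%). Of 5981 genes called in both, 5786 (96.7%) had the same sign, 3118 up and 2668 down. Across genes, which are not independent replicates, the changes had a Pearson correlation of 0.684 and a Spearman correlation of 0.757. The culture change was the wider, with an SD over genes of 1.27 against 0.94 on the log2 scale.

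The difference of changes was called for 2580 genes (19.9%). It was higher in culture for 1223 (9.42%) and lower for 1357 (10.5%), and it was at least 2-fold for 258 (1.99%) and 609 (4.69%) of all genes tested. Without a correction for composition, by library size alone, 2554 genes were called and the share of them that was higher fell from 47.4% to 32.1%. The 2 control groups differed in 920 genes (7.09%), among them 289 (11.2%) of the 2580. Of the 2580 genes, 2237 (86.7%) also differed with the same sign when cultured HSCs were set directly against day-6 HSCs, a contrast called for 39.7% of all genes, and 5 with the other sign. Among the genes named below the control groups differed for Scd1, Fads2, Acly, Psmd2, Pdha1, Taldo1, Gpsm2, Mecom, Cdkn1b, Cd48, Cd34 and Prtn3.

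The 2580 genes fell into classes by direction. Genes that rose in both conditions and more in culture (542, 4.18%) and genes that fell in both and more in culture (535, 4.12%) outnumbered those with the larger change after 5-FU (42 up, 0.324%, and 47 down, 0.362%). Genes called in culture alone numbered 373 up (2.87%) and 530 down (4.08%). Genes called after 5-FU alone numbered 130 up (1.0%) and 167 down (1.29%). Opposed genes, which passed the test in both experiments and in the difference with opposite signs, numbered 83 up in culture and down after 5-FU (0.639%) and 112 down in culture and up after 5-FU (0.863%), and in the second set the difference was at least 2-fold for 80. The difference was called with neither change called for 19 genes (0.146%).

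**Figure D1:**
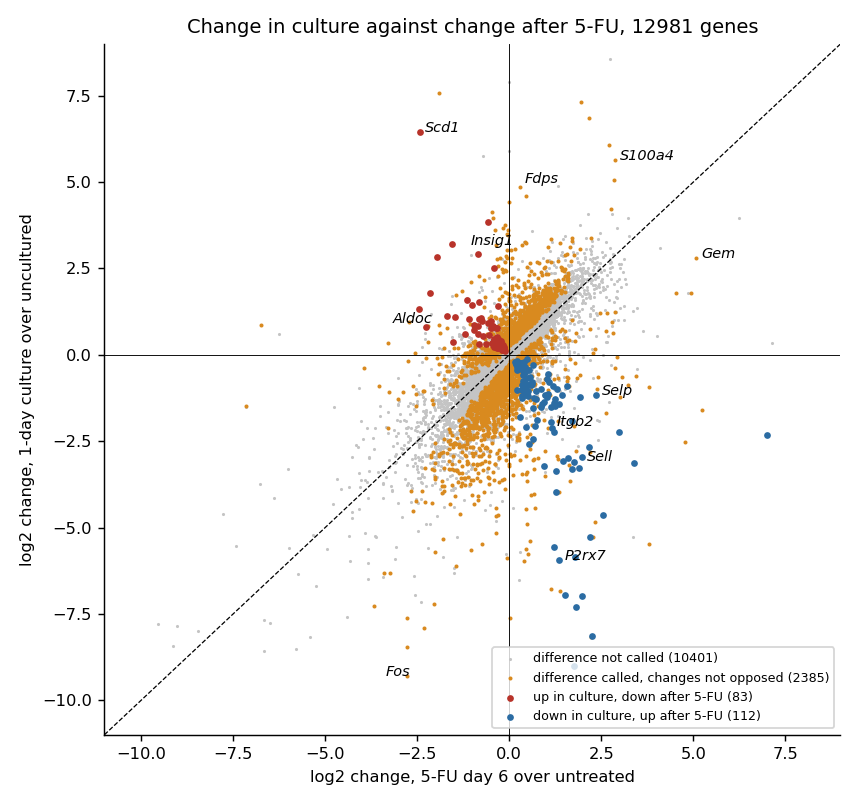
Log2 change in 1-day culture over uncultured HSCs (y axis) against log2 change 6 days after 5-FU over untreated HSCs (x axis), 1 point per tested gene, with the dashed line marking equal changes. Red points are the 83 genes up in culture and down after 5-FU, blue points the 112 down in culture and up after 5-FU, orange the other genes with a called difference and grey the 10401 genes with none. Points far below 0 on the y axis include genes with no read in any cultured library, whose fitted value depends on the prior count.

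Sterol synthesis had the highest median difference of any list, and only the macrophage list lay further from 0, on the lower side. All 25 genes for cholesterol synthesis and SREBP2 targets rose in culture, with a median log2 change of 3.03, while after 5-FU 2 rose, 6 fell and 17 did not pass the test (median -0.07). Of all tested genes 33.5% rose in culture, and 28.8% rose and 26.2% fell after 5-FU. The difference was called higher in culture for 25 of 25 (median 3.09), where 9.42% of all tested genes were called higher and the median over all genes was 0.0079. The 2 that rose after 5-FU were Acat2 and Ebp, and Insig1, Tm7sf2, Cyp51, Fdft1 and Srebf2 were among the 6 that fell. The 6 falls became 3 without untreated replicate 4. The fall of Cyp51 lost its call in 4 of 16 fits that left out 1 library, with adjusted p = 0.12 without untreated replicate 2 or 4, 0.057 without day-6 replicate 2 and 0.0975 without day-6 replicate 4.

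The bases just before the start sites of 5 of these genes are shown because the list moved together. The windows are 250 bases long, on GRCm38.p6 (the assembly of mm10) from RefSeq, read 5′ to 3′ on the gene's strand and ending at the annotated start. Capitals mark matches on either strand to CCAAT, the box bound by NF-Y, and to TCACNCCAC, a sterol regulatory element form bound by SREBPs. The 5 genes are Hmgcs1 (chr13:119690101-119690350, plus strand), Insig1 (chr5:28071162-28071411, plus), Msmo1 (chr8:64733579-64733828, minus), Lss (chr10:76531355-76531604, plus) and Cyp51 (chr5:4104698-4104947, minus).
Hmgcs1: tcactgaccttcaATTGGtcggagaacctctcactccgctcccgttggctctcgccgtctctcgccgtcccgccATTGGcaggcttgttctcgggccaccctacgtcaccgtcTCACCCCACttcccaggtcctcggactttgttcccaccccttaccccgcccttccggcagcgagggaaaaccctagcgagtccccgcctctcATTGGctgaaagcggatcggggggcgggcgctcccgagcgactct
Insig1: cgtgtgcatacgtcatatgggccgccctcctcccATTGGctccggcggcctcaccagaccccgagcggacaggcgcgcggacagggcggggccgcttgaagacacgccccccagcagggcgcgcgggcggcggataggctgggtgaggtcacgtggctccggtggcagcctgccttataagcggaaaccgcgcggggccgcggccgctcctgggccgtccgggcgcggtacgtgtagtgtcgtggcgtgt
Msmo1: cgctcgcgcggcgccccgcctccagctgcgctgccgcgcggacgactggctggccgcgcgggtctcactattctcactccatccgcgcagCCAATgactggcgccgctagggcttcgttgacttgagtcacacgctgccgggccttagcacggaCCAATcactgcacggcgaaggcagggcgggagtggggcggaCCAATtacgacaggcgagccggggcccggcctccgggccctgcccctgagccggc
Lss: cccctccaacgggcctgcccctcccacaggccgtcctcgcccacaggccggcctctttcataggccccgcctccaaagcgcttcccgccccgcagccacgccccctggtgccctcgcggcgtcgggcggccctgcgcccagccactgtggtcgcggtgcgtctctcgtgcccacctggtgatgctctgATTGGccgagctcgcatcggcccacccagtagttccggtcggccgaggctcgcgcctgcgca
Cyp51: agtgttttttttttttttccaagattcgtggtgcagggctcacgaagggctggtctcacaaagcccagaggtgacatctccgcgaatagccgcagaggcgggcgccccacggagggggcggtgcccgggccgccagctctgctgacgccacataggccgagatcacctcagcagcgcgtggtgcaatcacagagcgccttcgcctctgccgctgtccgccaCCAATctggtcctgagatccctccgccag
No marked matches overlap in these windows.

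Windows running from 250 bases before to 50 after a start were found for 17 of the 25 genes, and 16 of them (94.1%) held CCAAT, against 43.3% of 10382 tested genes with a window. The form TCACNCCAC was in 1 of the 17, Hmgcs1, at 137 bases before its start, and in 1.35% of all. Among the 83 opposed genes up in culture, 68 had a window, of which 5 (7.35%) held TCACNCCAC and 26 (38.2%) held CCAAT. None of those 5 was a member of the cholesterol list. For the 112 genes opposed the other way the shares of 76 genes with a window were 1.32% and 44.7%. A match describes letters in a window and is not shown to be a bound site.

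Hmgcs1, the synthase that makes HMG-CoA, stood at 23.4, 44.99, 30.3 and 46.5 CPM in the 4 untreated libraries and 37.02, 38.2, 34.1 and 35.3 CPM on day 6. It stood at 30.5, 22.5, 42.2 and 32.9 CPM in uncultured and 723, 676, 682 and 696 CPM in cultured HSCs. The 5-FU groups overlapped and every cultured library lay far above the uncultured ones, a log2 change of 4.44 ± 0.18 (SE) in culture against -0.01 ± 0.18 after 5-FU and a difference of 4.45 ± 0.25 (adjusted p = 2.7e-09).

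Further down the pathway, Fdps, which makes farnesyl diphosphate, was at 10.9, 9.20, 16.7 and 17.1 CPM uncultured and 395, 406, 381 and 403 CPM cultured. In the 5-FU experiment its values of 13.4, 31.4, 12.1 and 26.01 CPM in untreated and 23.1, 23.98, 27.6 and 26.7 CPM in day-6 HSCs overlapped, and the difference was 4.59 ± 0.32 (adjusted p = 2.0e-08). Untreated replicate 2 was the highest of its group, and without it the 5-FU change of Fdps passed the test (0.56, adjusted p = 0.037). Msmo1, which removes methyl groups from sterols, differed by 4.59 ± 0.45, and the lanosterol synthase Lss by 4.40 ± 0.27. The squalene epoxidase Sqle differed by 3.58 ± 0.40. These 3 genes rose in culture and were not called after 5-FU. The 5-FU change of Lss (-0.44, adjusted p = 0.064) was called as a fall in 2 of 16 fits that left out 1 library. That of Msmo1 (-0.46, adjusted p = 0.245) was called in 1.

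The regulators Insig1 and Srebf2 were opposed. Insig1, which holds SREBPs in the endoplasmic reticulum and is itself an SREBP target, went from 42.9, 40.2, 92.2 and 78.97 CPM uncultured to 451, 452, 508 and 512 CPM cultured. It was at 54.2, 77.2, 60.3 and 76.8 CPM in untreated and 36.7, 39.5, 43.6 and 28.9 CPM in day-6 HSCs, with no overlap in either experiment. Its log2 change was 2.92 ± 0.21 in culture and -0.85 ± 0.21 after 5-FU (adjusted p = 1.0e-09 and 0.0025), a difference of 3.77 ± 0.30 (adjusted p = 8.3e-08). Srebf2, an SREBP itself, moved less, by 0.83 ± 0.09 in culture and -0.44 ± 0.09 after 5-FU, with a difference of 1.27 ± 0.13 (adjusted p = 1.3e-06).

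**Figure D2:**
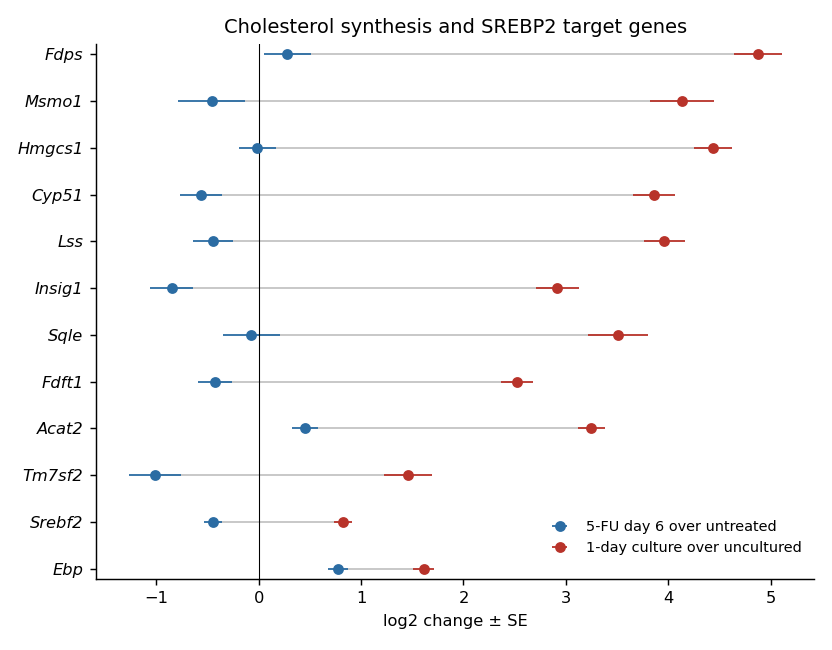
Log2 change with its SE (x axis) of 12 of the 25 cholesterol synthesis and SREBP2 target genes, those named in the text (y axis, ordered by the difference), in 1-day culture (red) and 6 days after 5-FU (blue), 4 libraries a group. All 12 red points lie to the right of 0 and of the blue point of the same gene, and the blue points lie on both sides of 0.

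Fatty acid synthesis followed the same pattern for its desaturases and a milder one for its synthases. Of 20 genes, 17 rose and 1 fell in culture (median 1.55), 7 rose and 6 fell after 5-FU (median -0.0013), and the difference was called higher in culture for 17 and lower for 1. Over all tested genes 33.5% rose and 33.5% fell in culture, and 28.8% rose and 26.2% fell after 5-FU. The difference was higher for 9.42% of them and lower for 10.5%. Scd1, the desaturase that makes oleate, was at 4.77, 4.00, 9.40 and 8.69 CPM in uncultured and 624, 577, 565 and 586 CPM in cultured HSCs. It was at 10.6, 17.5, 16.2 and 16.5 CPM in untreated and 2.69, 3.59, 2.70 and 2.18 CPM in day-6 HSCs. The groups did not overlap in either experiment, and mean CPM was 87.6-fold higher in culture and 5.45-fold lower after 5-FU. Its log2 changes of 6.44 ± 0.19 and -2.43 ± 0.24 gave a difference of 8.87 ± 0.29 (adjusted p = 5.9e-13). The 2 control groups also differed for Scd1, with uncultured below untreated HSCs (log2 -1.17, adjusted p = 0.0024).

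Its paralogue Scd2 rose in culture from 329.5 ± 89.9 to 2289 ± 147 CPM (SD, n = 4) and was not called after 5-FU (449 ± 109.8 against 380.2 ± 35.1 CPM), a difference of 3.03 ± 0.24 (adjusted p = 1.1e-07). Fads2, a desaturase of polyunsaturated fatty acids, differed by 2.80 ± 0.14 and was also not called after 5-FU, and its 2 control groups differed by a log2 value of -0.68, uncultured minus untreated (adjusted p = 4.7e-04). By contrast the enzymes that supply and join acetyl units rose in both experiments. Acly, which makes acetyl-CoA from citrate, was at 236, 276, 256 and 286 CPM in untreated, 327, 361, 362 and 351 CPM in day-6, 221, 189, 239.8 and 225 CPM in uncultured and 939, 936, 922 and 918 CPM in cultured HSCs. Its rise was 0.41 ± 0.07 after 5-FU and 2.09 ± 0.07 in culture, a difference of 1.68 ± 0.10 (adjusted p = 6.3e-09). Fasn, the fatty acid synthase, rose by 0.66 ± 0.13 and 2.34 ± 0.13, a difference of 1.68 ± 0.18 (adjusted p = 2.9e-06). Srebf1 rose in culture alone (1.20 ± 0.09). The 5-FU change of Srebf1 (0.20, adjusted p = 0.074) was called as a rise in 4 of 16 fits that left out 1 library. The 1 gene with a lower difference was Acacb, the acetyl-CoA carboxylase at mitochondria, which fell in both experiments (log2 change -2.30 ± 0.22 in culture and -0.61 ± 0.20 after 5-FU).

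Several sterol export genes fell. Of 10 genes for cholesterol efflux and LXR targets, 2 rose and 6 fell in culture, 2 rose and 5 fell after 5-FU, and the difference was lower for 3 and higher for 1. The 1 higher call became 0 to 2 when 1 library was left out. The 2 rises after 5-FU became 1 without untreated replicate 1 or without day-6 replicate 1. The 3 lower ones fell in both experiments and further in culture. Among all tested genes 33.5% rose and 33.5% fell in culture, and 28.8% rose and 26.2% fell after 5-FU. The difference was lower for 10.5% of them and higher for 9.42%. The cholesterol exporter Abca1 was at 147, 104, 116 and 103 CPM uncultured and 11.5, 14.7, 9.51 and 4.55 CPM cultured, and at 137, 186, 188 and 202 CPM untreated and 125, 59.6, 71.6 and 69.9 CPM on day 6 (difference -2.41 ± 0.35, adjusted p = 9.1e-05). Its relative Abcg1 differed by -1.07 ± 0.16. The fall of Abcg1 after 5-FU (-0.28, adjusted p = 0.041) lost its call in 12 of 16 fits that left out 1 library. Without untreated replicate 2 its adjusted p was 0.13. Apoe, a lipid carrier protein, went from 163 ± 11.1 to 21.2 ± 2.21 CPM in culture and from 198 ± 39.5 to 112 ± 13.99 CPM after 5-FU, a difference of -2.12 ± 0.18 (adjusted p = 1.8e-07).

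Genes of fatty acid oxidation were called in both directions. Of 24 genes, 8 rose and 5 fell in culture, 14 rose and 3 fell after 5-FU, and the difference was lower for 7 and higher for 2 (median -0.29). The 2 higher calls became 1 in most of the 16 fits that left out 1 library. Of all tested genes 33.5% rose and 33.5% fell in culture, 28.8% rose and 26.2% fell after 5-FU, and the difference was lower for 10.5% and higher for 9.42%. Cpt1a, which commits long-chain fatty acids to mitochondria, was opposed. It was at 358, 255, 321 and 309 CPM untreated and 429.9, 384, 432 and 399.6 CPM on day 6, and at 316, 339.8, 271 and 308 CPM uncultured and 155, 164, 150.2 and 137 CPM cultured. No library overlapped in either experiment, and the difference was -1.43 ± 0.13 (adjusted p = 4.2e-07). Acaa2, the thiolase of the last step, was opposed as well (-0.28 ± 0.11 in culture, 0.66 ± 0.11 after 5-FU), but its culture change was not called without uncultured replicate 1 or 4 or cultured replicate 4 (adjusted p = 0.12, 0.073 and 0.099). The acyl-CoA dehydrogenases Acads and Acadvl rose after 5-FU alone (0.41 and 0.44). Echs1, a hydratase of the spiral, was 1 of the 2 with a higher difference and rose in culture alone (0.49).

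Other opposed genes up in culture came from several pathways. Aldoc, a glycolytic aldolase and hypoxia-responsive gene, was at 22.6, 22.98, 37.5 and 36.6 CPM in untreated, 5.67, 6.61, 6.88 and 5.62 CPM in day-6, 26.1, 21.1, 38.5 and 24.6 CPM in uncultured and 54.5, 50.1, 41.6 and 48.1 CPM in cultured HSCs. Its fall after 5-FU (-2.26 ± 0.21) was the wider part of its difference of 3.08 ± 0.28 (adjusted p = 5.3e-07). Abca4, an ABC transporter, had log2 changes of 1.09 ± 0.27 in culture and -1.46 ± 0.30 after 5-FU. Acsl3, which activates fatty acids for lipid droplets, went from 39.02, 22.7, 34.5 and 36.5 CPM to 70.03, 72.2, 66.1 and 69.1 CPM in culture and from 32.5, 28.97, 28.5 and 27.9 CPM to 13.9, 16.8, 21.5 and 17.5 CPM after 5-FU (difference 1.82 ± 0.21, adjusted p = 5.7e-06). Utp14b gave similar changes (1.05 ± 0.13 and -0.83 ± 0.14), but the RefSeq table starts both genes at the same base of chromosome 1, so reads of these 2 genes may not be separable.

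The folate enzyme Aldh1l1 (0.98 ± 0.13 in culture, -0.74 ± 0.13 after 5-FU) and the cytokine receptor chain Csf2rb2 (1.41 ± 0.11 and -0.30 ± 0.12) were opposed too, as was the transcription factor Runx1 (0.30 ± 0.10 and -0.63 ± 0.10). The fall of Csf2rb2 after 5-FU lost its call in 12 of 16 fits that left out 1 library (adjusted p = 0.16 without untreated replicate 2), and the rise of Runx1 in culture was not called without cultured replicate 3 (adjusted p = 0.056). The near-copy of Csf2rb2, Csf2rb, rose in both (1.73 ± 0.17 and 0.65 ± 0.18), and counting may split reads between the 2 genes.

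**Figure D3:**
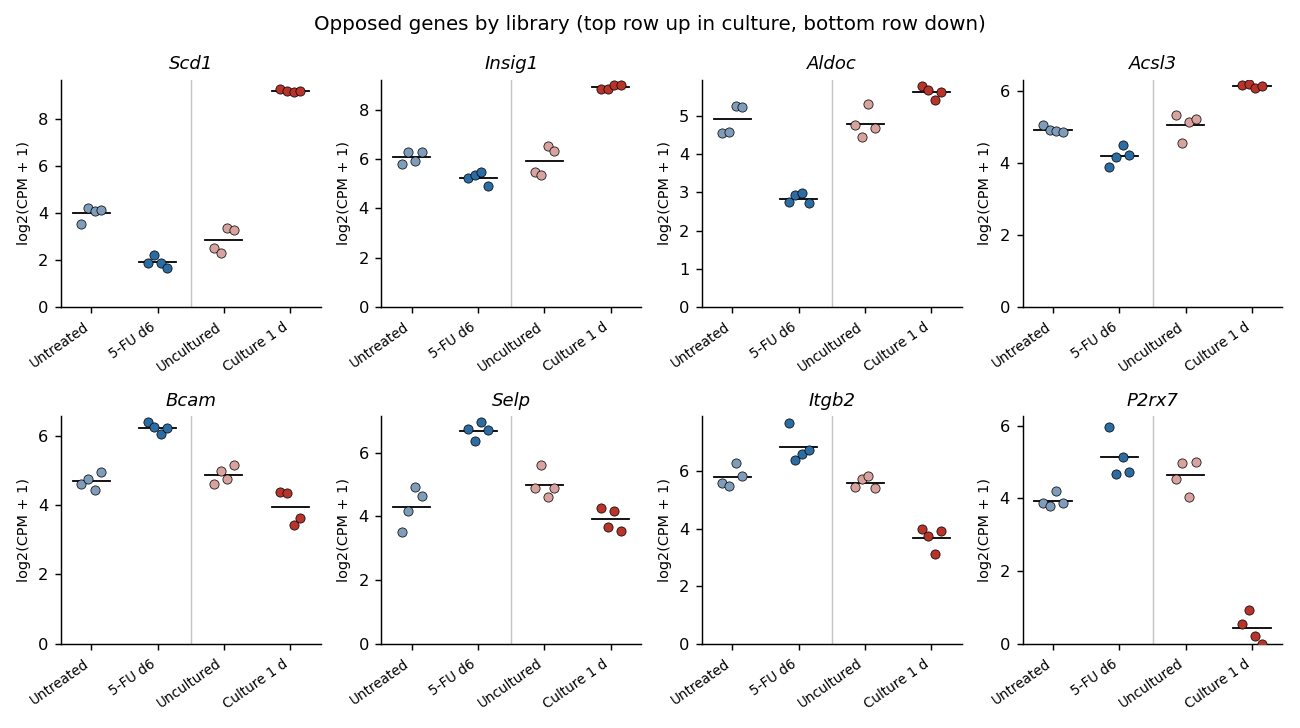
Level of 8 opposed genes as log2(CPM + 1) (y axis) in each library, with 4 points and a bar for their mean in untreated, day-6, uncultured and cultured HSCs (x axis). For Scd1, Insig1, Aldoc and Acsl3 the cultured group has the highest mean and the day-6 group the lowest, and for Bcam, Selp, Itgb2 and P2rx7 the day-6 group has the highest mean and the cultured group the lowest.

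Antioxidant genes under the factor NRF2 separated by gene. Of 31, 22 rose and 5 fell in culture, 14 rose and 3 fell after 5-FU, and the difference was higher for 9 and lower for 1. Without day-6 replicate 1 the 3 falls after 5-FU became 5. Over all tested genes 33.5% rose and 33.5% fell in culture, and 28.8% rose and 26.2% fell after 5-FU. The difference was higher for 9.42% of them and lower for 10.5%. Nqo1, a quinone reductase and standard NRF2 target, was at 16.95, 12.9, 9.55 and 20.1 CPM uncultured and 209, 167, 193 and 193 CPM cultured, while untreated (11.4, 15.05, 18.7 and 13.6 CPM) and day-6 libraries (10.7, 14.2, 11.5 and 16.1 CPM) overlapped. Its difference was 3.84 ± 0.27 (adjusted p = 2.0e-08). Slc7a11, the cystine importer, was at 31.9, 26.7, 38.4 and 33.3 CPM in cultured HSCs and at 0 to 2.24 CPM in the other 12 libraries, with a difference of 4.13 ± 0.67 (adjusted p = 3.2e-04). The glutathione synthesis subunit Gclm and the sulfiredoxin Srxn1 also rose in culture alone, with differences of 1.73 ± 0.14 and 1.76 ± 0.20. The 5-FU change of Gclm (0.23, adjusted p = 0.0575) was called as a rise in 7 of 16 fits that left out 1 library. Thioredoxin itself, Txn1, rose in both by 1.98 and 1.80, with no call for its difference.

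Txnip, which inhibits thioredoxin and glucose uptake, was the 1 member with a lower difference. It fell from 1267, 1382, 1217 and 1482 CPM to 84.97, 82.8, 95.1 and 86.4 CPM in culture and from 1853, 1243, 1384 and 1411 CPM to 489, 351, 433 and 442 CPM after 5-FU, a difference of -2.16 ± 0.16 (adjusted p = 2.7e-08).

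The growth programme rose in both settings, and its parts differed in how far. Among all tested genes 33.5% rose in culture and 28.8% after 5-FU. The difference was higher in culture for 9.42% of them and lower for 10.5%. All 56 DNA replication genes rose in culture and all 56 after 5-FU, with medians of 1.80 and 1.45, and the difference was higher in culture for 12, or 7 without the 4 libraries that carried most granulocyte or macrophage transcripts. Of 66 mitosis and cytokinesis genes 65 rose in each, with medians of 2.20 and 2.24, and the difference was higher for 4 and lower for 1. These few calls turned on single libraries. Without untreated replicate 2 they were 2 higher and 7 lower, with a 5-FU median of 2.74 and a median difference of -0.43 in place of 0.05, and without untreated replicate 4 they were 9 higher and 0 lower. The proliferation marker Mki67 was at 165 ± 74.6 CPM untreated, 619 ± 27.9 CPM on day 6, 183 ± 79.4 CPM uncultured and 637 ± 44.8 CPM cultured, and its difference of -0.11 ± 0.37 did not pass the test (adjusted p = 0.87).

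Many genes of protein turnover and synthesis rose further in culture. Of 37 proteasome genes all rose in culture and 36 after 5-FU, and the difference was higher for 19 and lower for 0, with 9.42% and 10.5% of all genes called in each direction. The 19 became 10 without day-6 replicate 1, 12 without untreated replicate 2, and 11, 11 and 12 without cultured replicates 2, 3 and 4. The proteasome subunit Psmd2 went from 125 ± 5.85 to 372 ± 18.3 CPM and from 154 ± 10.8 to 296 ± 25.01 CPM (difference 0.63 ± 0.10, adjusted p = 2.4e-04). All 20 aminoacyl-tRNA synthetases, which load amino acids onto tRNA, rose in each experiment, and 11 had a higher difference, among them Mars (0.88 ± 0.14), Iars (0.62 ± 0.10) and Nars (0.70 ± 0.12). Ribosome biogenesis gave 16 higher and 1 lower of 52, with 10 higher without day-6 replicate 1. Heat shock proteins and chaperones gave 6 higher and 0 lower of 25, endoplasmic reticulum chaperones 4 and 1 of 22, amino acid transporters 5 and 2 of 15, and genes of the ATF4 stress response 5 and 1 of 16. When 1 library was left out, the higher counts ranged from 1 to 9 for endoplasmic reticulum chaperones, 3 to 7 for amino acid transporters and 2 to 5 for the ATF4 response, moving by over 1.5 times in 8, 6 and 9 of 16 fits. The genes of the cytosolic ribosome itself gave 1 higher and 5 lower of 79, with 11 lower without untreated replicate 1, 9 lower without uncultured replicate 1 and 3 higher without uncultured replicate 2.

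Genes of energy metabolism rose in both. Among all tested genes 33.5% rose in culture and 28.8% after 5-FU. The difference was higher for 9.42% of them and lower for 10.5%. Nuclear genes of oxidative phosphorylation rose in 69 of 72 in culture and 68 of 72 after 5-FU (medians 1.13 and 0.98), and the difference was higher for 4 and lower for 1. The 4 became 0 to 2 in 13 of 16 fits that left out 1 library, and 0 without day-6 replicate 1 or cultured replicate 3 or 4. Of 26 genes of the TCA cycle, 24 rose in culture and 25 after 5-FU, and the difference was lower for 3 (Pdha1, Idh3b and Suclg1). Mitochondrial ribosomal proteins gave 6 higher and 0 lower of 55, with 3 higher without the 4 libraries with most granulocyte or macrophage transcripts. Glycolysis gave 7 higher and 4 lower of 24, with Pgk1 and Pkm rising in both and more in culture (differences 0.77 ± 0.09 and 0.60 ± 0.09). The pentose phosphate pathway gave 4 higher and 0 lower of 9, with Taldo1 at 1.09 ± 0.11. Serine and one-carbon genes gave 7 higher and 1 lower of 23, and pyrimidine synthesis genes 5 and 2 of 25, including Tyms, the enzyme that 5-FU metabolites block (1.52 ± 0.17 after 5-FU, 2.48 ± 0.17 in culture, difference 0.96 ± 0.24, adjusted p = 0.0082). Without the same 4 libraries no pyrimidine synthesis gene had a higher difference, and that of Tyms was 0.89 (adjusted p = 0.055).

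**Figure D4:**
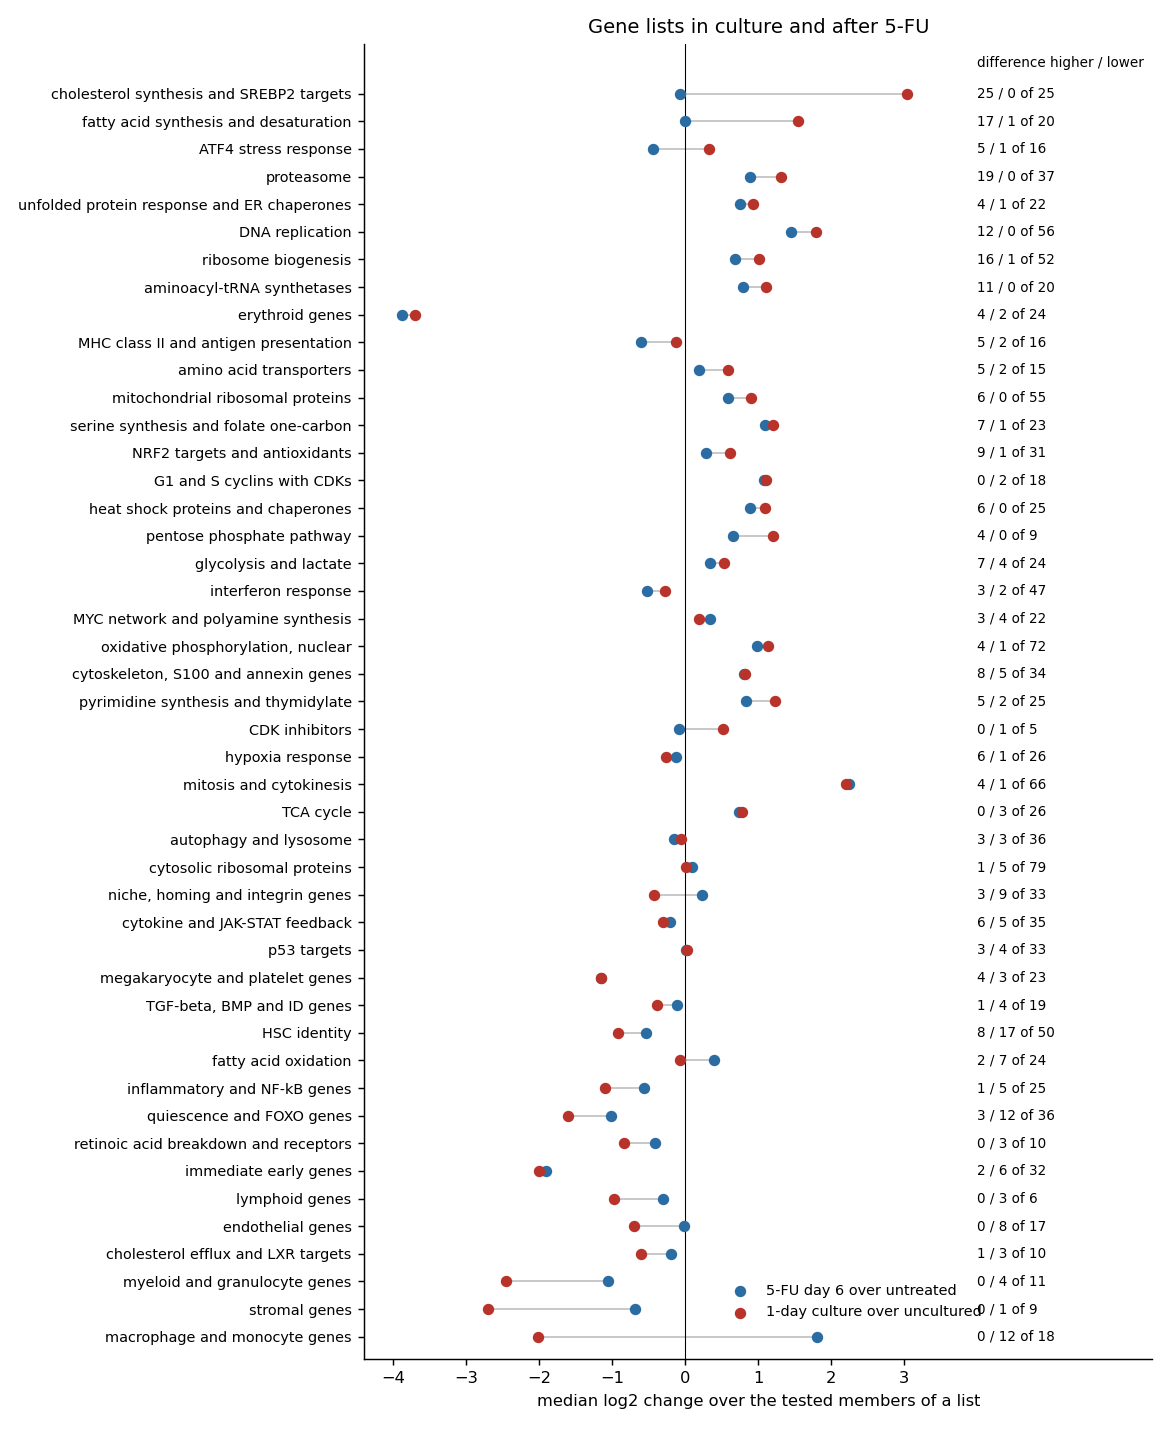
Median log2 change (x axis) over the tested members of each gene list with at least 5 tested genes (y axis, ordered by the median difference), in 1-day culture (red) and 6 days after 5-FU (blue), with the number of members whose difference was called higher or lower in culture at the right. Lists of cell division, protein synthesis and mitochondria lie to the right of 0 for both, cholesterol genes for culture, and macrophage genes for 5-FU. Lists were chosen with earlier results of these data known, and medians of the erythroid, stromal and macrophage lists rest in part on genes with no read in a group.

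Gem and Ccnd1 rose further after 5-FU. Gem, a small GTPase that restrains calcium channels, was at 28.6, 12.3, 23.5 and 21.1 CPM in untreated and 717, 806, 651 and 712 CPM in day-6 HSCs, and at 23.1, 33.96, 27.2 and 14.2 CPM uncultured and 134, 153, 181 and 228 CPM cultured. It rose by 5.07 ± 0.24 after 5-FU and 2.82 ± 0.23 in culture, a difference of -2.26 ± 0.32 (adjusted p = 6.9e-05). Ccnd1, the G1 cyclin D1, was at 58.7, 53.9, 72.1 and 89.8 CPM untreated and 238, 241, 243 and 220.1 CPM on day 6, but in culture it went from 65.2, 68.4, 63.4 and 98.4 CPM to 81.1, 102, 98.1 and 106 CPM, where the groups overlapped (difference -1.39 ± 0.21, adjusted p = 1.4e-04). The rise of Ccnd1 in culture (0.39, adjusted p = 0.027) lost its call in 6 of 16 fits that left out 1 library. Of 18 genes in the list of G1 and S cyclins with CDKs, Ccnd1 among them, none had a higher difference, and 1, 2 and 3 did without untreated replicate 3, untreated replicate 4 and uncultured replicate 3. The other lower difference was that of Rbl2, a pocket protein that restrains E2F, which fell in both experiments (-1.07 ± 0.07 in culture and -0.73 ± 0.07 after 5-FU). Over all tested genes the difference was higher for 9.42% and lower for 10.5%. Ect2, which drives cytokinesis, and Gpsm2, which orients the spindle, had differences of -1.45 ± 0.49 and -1.24 ± 0.38, but the call of Ect2 was lost in 14 of the 16 fits that left out 1 library and that of Gpsm2 in 5, and neither gene differed by the test between cultured and day-6 HSCs directly (adjusted p = 0.27 and 0.98).

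In the other direction, S100a4, a calcium-binding protein of motile cells, rose from 2.12, 1.19, 1.79 and 2.21 CPM to 112, 94.97, 79.3 and 78.2 CPM in culture and from 2.16, 2.59, 1.10 and 2.83 CPM to 21.8, 12.4, 16.2 and 14.5 CPM after 5-FU (difference 2.77 ± 0.38, adjusted p = 5.6e-05). Id1, a BMP and cytokine target that blocks differentiation factors, rose by 5.07 ± 0.33 and 2.84 ± 0.31 (difference 2.24 ± 0.48). The tubulins Tuba1a and Tubb5 had differences of 2.83 ± 0.27 and 0.76 ± 0.11. Tfrc, the transferrin receptor, rose in culture alone (2.24 ± 0.30, difference 2.17 ± 0.42, adjusted p = 0.0014).

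Adhesion and surface molecules were among the genes down in culture and up after 5-FU. Of 33 niche, homing and integrin genes, 10 rose and 16 fell in culture, 15 rose and 10 fell after 5-FU, and 5 were opposed, Selp, Itgb2, Vcam1 and Esam among them, against 0.863% of all genes opposed in this direction. The difference was lower for 9 and higher for 3, or higher for 5 without uncultured replicate 2. Over all tested genes 33.5% rose and 33.5% fell in culture, and 28.8% rose and 26.2% fell after 5-FU. The difference was lower for 10.5% of them and higher for 9.42%. Selp, P-selectin, was at 10.3, 17.2, 29.2 and 23.8 CPM in untreated and 105, 80.4, 123 and 103 CPM in day-6 HSCs, and at 28.4, 47.8, 23.3 and 28.7 CPM uncultured and 18.1, 11.7, 16.9 and 10.7 CPM cultured. It rose by 2.36 ± 0.26 after 5-FU and fell in culture (-1.16 ± 0.27), a difference of -3.52 ± 0.38 (adjusted p = 3.0e-06).

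Itgb2, the beta chain shared by leukocyte integrins, was at 47.4, 44.02, 75.9 and 55.6 CPM untreated, 202, 82.9, 95.2 and 106 CPM on day 6, 42.4, 51.2, 55.2 and 41.1 CPM uncultured and 14.7, 12.3, 7.73 and 14.1 CPM cultured. Day-6 replicate 1 was the highest, and without it the rise was 0.78 in place of 1.12 and still called (adjusted p = 0.0014). Its partner Itgal fell in culture (-3.02 ± 0.47) and was not called after 5-FU. Esam, an adhesion molecule of HSCs and vessels, rose by 0.35 ± 0.10 after 5-FU and fell in culture (-1.26 ± 0.11). Itga9 fell in both and further in culture (difference -3.38 ± 0.31), and Itga6 rose in culture alone (0.54 ± 0.12). Without untreated replicate 1 a fall of Itga6 after 5-FU was called (-0.31, adjusted p = 0.017).

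P2rx7, an ATP-gated channel, was nearly silent after culture. It stood at 0.471, 0.900, 0.161 and 0 CPM in cultured and 22.1, 30.7, 15.4 and 31.3 CPM in uncultured HSCs, and at 13.7, 12.8, 17.5 and 13.6 CPM untreated and 61.2, 24.4, 34.4 and 25.7 CPM on day 6 (difference -7.28 ± 0.58, adjusted p = 9.3e-08). The laminin receptor Bcam was at 23.6, 25.9, 20.8 and 29.97 CPM untreated, 83.6, 74.4, 65.7 and 73.3 CPM on day 6, 23.5, 30.7, 25.96 and 34.3 CPM uncultured and 19.8, 19.5, 9.67 and 11.4 CPM cultured (difference -2.48 ± 0.27, adjusted p = 3.6e-06). The sugar-phosphate transporter Slc37a3 was opposed with a difference of -2.60 ± 0.29. The secreted vascular factor Egfl7 changed by 1.07 ± 0.15 after 5-FU and -0.79 ± 0.15 in culture, the chromatin protein Hmga2 changed by 0.72 ± 0.12 and -1.05 ± 0.12, and the ERK phosphatase Dusp6 by 0.36 ± 0.12 and -1.20 ± 0.12. The rise of Dusp6 after 5-FU was not called without untreated replicate 4 (adjusted p = 0.055). Of 17 endothelial genes, the difference was lower for 8 and higher for 0, and without day-6 replicate 1 it was lower for 7. Among all tested genes it was lower for 10.5% and higher for 9.42%.

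Macrophage genes had a lower difference in 12 of 18, and most of their rises after 5-FU were not called without day-6 replicate 1. After 5-FU 15 rose and 0 fell, with a median of 1.80. Without that library 5 rose and 1 fell (median 0.83). The count of opposed members went from 8 to 3 and that of lower differences stayed at 12. In culture 10 fell and 1 rose, with a median difference of -3.93, or -3.52 with 5 genes at 0 in all cultured libraries (Adgre1, C1qa, C1qb, Cd5l and Vcam1) put at the bound of 3 counts per library. Over all tested genes 28.8% rose after 5-FU, 33.5% fell in culture and 10.5% had a lower difference.

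Mrc1, the macrophage mannose receptor, was at 82.4, 6.18, 6.14 and 21.4 CPM on day 6 and 3.08, 3.88, 2.76 and 1.27 CPM in untreated HSCs, so that replicates 1 and 4 were the high ones. C1qb, a complement chain made by macrophages, was at 65.4, 7.76, 2.46 and 17.3 CPM on day 6, 3.70, 5.34, 3.86 and 6.36 CPM in untreated and 3.35, 6.38, 4.92 and 6.32 CPM in uncultured HSCs, and its rise was lost without replicate 1 (adjusted p = 0.13). Vcam1, an adhesion molecule of macrophages and stroma that is also in the niche list, was at 45.5, 8.90, 3.81 and 42.1 CPM on day 6 and 7.70, 6.31, 7.54 and 8.06 CPM untreated. It was at 13.2, 4.60, 8.36 and 12.5 CPM uncultured and at 0 in all 4 cultured libraries, which with 3 counts set as the floor of each library is at least 22.6-fold lower. Its rise after 5-FU was not called without day-6 replicate 1 or without day-6 replicate 4 (adjusted p = 0.074 and 0.068).

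**Figure D5:**
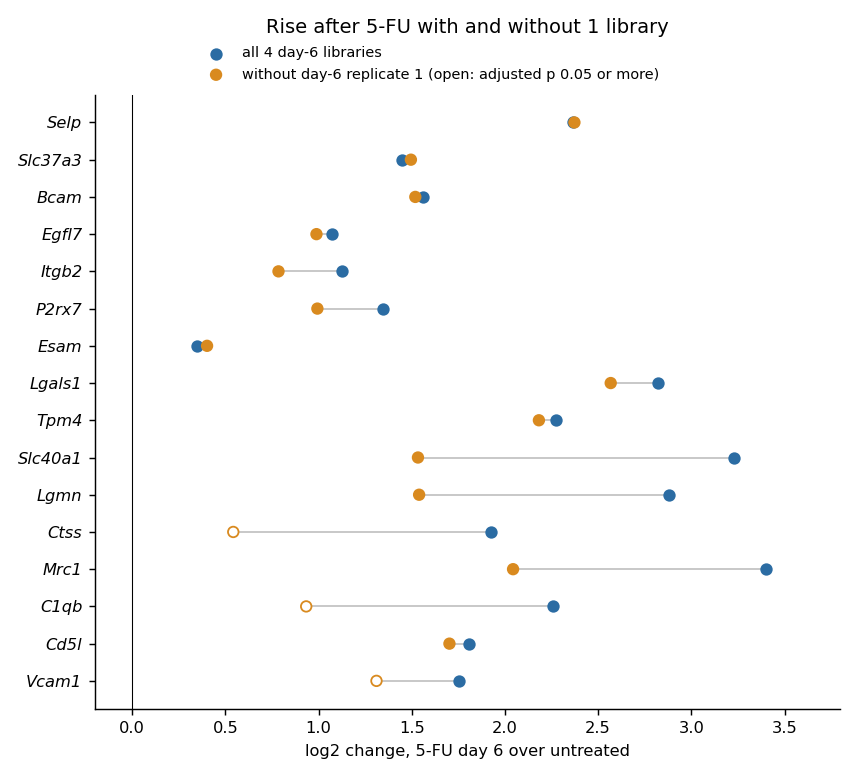
Log2 change 6 days after 5-FU over untreated HSCs (x axis) of 16 genes with a called rise and a lower difference in culture (y axis), with all 4 day-6 libraries (blue) and without day-6 replicate 1 (orange, open where the adjusted p was 0.05 or more). Selp, Bcam and Slc37a3 keep their position, while Slc40a1, Lgmn, Ctss, Mrc1 and C1qb move left.

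Genes called after 5-FU alone included rises that were much smaller without day-6 replicate 1 and rises that changed little. The iron exporter Slc40a1 was at 260.2, 14.2, 13.5 and 49.1 CPM on day 6 and the lysosomal protease Lgmn at 143, 19.4, 11.5 and 28.2 CPM, with replicate 1 far above the rest. Without it their 5-FU changes were 1.53 and 1.54 in place of 3.23 and 2.88 and still called (adjusted p = 0.011 and 0.0021). That of the protease Ctss was 0.54 in place of 1.93 and not called (adjusted p = 0.056). In the same fit the culture change of Ctss became a called fall (-0.58, adjusted p = 0.035). The differences of Slc40a1, Lgmn and Ctss, -4.10, -3.26 and -2.50, became -2.41, -1.93 and -1.12 and were still called. The difference of Ctss lost its call when any of several other libraries was left out. Lgals1, a secreted galectin, was at 10.5, 10.8, 10.5 and 11.9 CPM untreated and 117, 57.3, 67.05 and 67.9 CPM on day 6, and at 15.5, 10.4, 11.3 and 3.79 CPM uncultured and 20.2, 23.9, 9.19 and 9.82 CPM cultured. Every day-6 library lay above every other one of the 16, and the difference was -2.18 ± 0.48 (adjusted p = 0.0037). A rise of Lgals1 in culture was called without uncultured replicate 1 (0.89, adjusted p = 0.046). The actin-binding Tpm4 had a difference of -2.23 ± 0.66, with 1 uncultured library, replicate 2, at 75.3 CPM against 8.65 to 13.4 CPM in the others, and without it the difference was -0.94 and still called, while the culture change became a called rise of 1.34. From intron reads the difference of Tpm4 was 0.18 and not called. The TGF-beta co-receptor Tgfbr3 was at 206, 287, 296 and 327 CPM untreated and 588, 625, 555 and 530.1 CPM on day 6 and was not called in culture (difference -1.21 ± 0.17, adjusted p = 7.2e-05). Zmat3, a p53 target, rose after 5-FU alone (1.63 ± 0.21, difference -1.19 ± 0.29). Its culture change (0.44, adjusted p = 0.073) was called as a rise in 3 of 16 fits that left out 1 library. Over 33 p53 targets the difference was higher for 3 and lower for 4, or higher for 5 without uncultured replicate 2. The 3 and 4 were near the shares of all tested genes, 9.42% higher and 10.5% lower.

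Genes that fell after 5-FU alone included genes of antigen presentation. Of 16 genes for MHC class II and antigen presentation, 0 rose and 12 fell after 5-FU, 0 rose and 6 fell in culture, and the difference was higher for 5 and lower for 2. Of all tested genes 26.2% fell after 5-FU and 33.5% in culture, so the 6 falls in culture were near the share of all genes, and the difference was higher for 9.42% and lower for 10.5%. The 5 became 3 in 6 of 16 fits that left out 1 library. H2-K1, a classical MHC class I heavy chain, was at 2290.5, 1979, 2178 and 2177 CPM in untreated and 1429.8, 1474, 1604 and 1340.0 CPM in day-6 HSCs, and at 2058, 1977, 1832 and 2257 CPM uncultured and 2024, 2113, 2048 and 2167 CPM cultured. The 5-FU groups were apart and the culture groups overlapped, with a difference of 0.60 ± 0.09 (adjusted p = 1.3e-04). The nonclassical H2-Q7 fell from 211 ± 42.4 to 74.5 ± 8.55 CPM (difference 1.71 ± 0.19, adjusted p = 4.7e-06), and the peptide-loading factor Tapbp differed by 0.64 ± 0.12. The culture change of Tapbp (0.17, adjusted p = 0.069) was called as a rise in 2 of 16 fits that left out 1 library. Neither unique exon reads nor intron reads gave a call for H2-K1, with differences of 0.33 and -0.038. MHC genes resemble each other closely, so single values depend on how reads were assigned. H2-Ob, a class II chaperone chain, fell in both and further in culture (difference -2.19 ± 0.52).

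Ndrg1, a hypoxia and stress gene, was at 75.9, 78.3, 95.8 and 72.2 CPM untreated and 20.3, 26.6, 23.6 and 28.2 CPM on day 6, against 103, 97.1, 112 and 94.9 CPM uncultured and 56.6, 90.6, 76.7 and 105 CPM cultured (difference 1.40 ± 0.21, adjusted p = 1.7e-04). Without cultured replicate 4 a fall of Ndrg1 in culture was called (-0.46, adjusted p = 0.0094). Zbtb16, the transcription factor PLZF, was at 166, 39.97, 25.9 and 39.02 CPM untreated and 3.28, 11.3, 3.44 and 5.46 CPM on day 6, with untreated replicate 1 far above its group, and at 43.97, 53.8, 42.4 and 55.6 CPM uncultured and 21.4, 27.6, 27.7 and 27.7 CPM cultured (difference 2.63 ± 0.66, adjusted p = 0.0094). Without that library its difference was 1.67 and still called, and from intron reads it was -0.14 and not called. Its fall in culture (-0.91, adjusted p = 0.072) was called without untreated replicate 1 or 3 (adjusted p = 0.0033 and 0.048). Gfi1b, a repressor of the erythroid and megakaryocyte lines, and the membrane recycling protein Ehd3 differed by 1.29 ± 0.30 and 1.36 ± 0.25. The culture change of Ehd3 (0.38, adjusted p = 0.068) was called as a rise in 2 of 16 fits that left out 1 library. Stat2, which carries interferon signals, fell after 5-FU alone (-0.93 ± 0.12, difference 0.88 ± 0.16). Over 47 interferon response genes, 8 rose and 21 fell in culture, 4 rose and 23 fell after 5-FU, and the difference was higher for 3 and lower for 2. Among all tested genes 33.5% rose and 33.5% fell in culture, and 28.8% rose and 26.2% fell after 5-FU. The difference was higher for 9.42% of them and lower for 10.5%.

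HSC identity genes fell in both settings and more of them further in culture. Of 50, 3 rose and 39 fell in culture (median -0.92), 4 rose and 35 fell after 5-FU (median -0.54), and the difference was lower for 17 and higher for 8. Of all tested genes 33.5% fell in culture and 26.2% after 5-FU, and the difference was lower for 10.5% and higher for 9.42%. The 3 genes whose proteins defined the sort had lower differences. Procr, which encodes EPCR, was at 77.8, 74.3, 63.8 and 77.5 CPM untreated, 65.4, 66.5, 73.9 and 68.2 CPM on day 6, 45.2, 58.3, 68.3 and 59.9 CPM uncultured and 18.5, 20.7, 16.9 and 20.1 CPM cultured (difference -1.51 ± 0.16, adjusted p = 2.6e-06). Slamf1, which encodes CD150, differed by -1.07 ± 0.20 (adjusted p = 0.0012). Cd48 was low throughout, at 0.616, 0.162, 0.919 and 0 CPM untreated, 6.12, 2.59, 1.84 and 3.59 CPM on day 6, 3.35, 1.33, 3.43 and 1.90 CPM uncultured and 1.18, 2.10, 0.806 and 2.28 CPM cultured, and its difference of -3.70 ± 0.88 (adjusted p = 0.0065) came with control groups that differed (log2 2.57, adjusted p = 0.03). Set directly against day-6 HSCs, the cultured level of Cd48 did not pass the test (-1.14, adjusted p = 0.12). Day-6 cells were sorted by these proteins after treatment, and the part of the sort in these values was not tested.

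Mecom, a transcription factor of HSC self-renewal, was opposed by small amounts (0.21 ± 0.07 after 5-FU, -0.35 ± 0.07 in culture). Cd34, a marker that rises as HSCs lose long-term potential, fell after 5-FU alone (-0.46 ± 0.12), with control groups that also differed (log2 0.63, adjusted p = 0.0035). Without uncultured replicate 3 a rise of Cd34 in culture was called (0.33, adjusted p = 0.013).

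Quiescence and FOXO genes fell in 31 of 36 in each experiment, and the difference was lower for 12 and higher for 3. Of all tested genes 33.5% fell in culture and 26.2% after 5-FU, with a lower difference for 10.5% and a higher one for 9.42%. Pik3ip1, an inhibitor of PI3 kinase, was at 300.3, 353, 311 and 378 CPM uncultured and 29.5, 26.9, 20.8 and 19.5 CPM cultured, and at 321, 303, 225 and 221 CPM untreated and 98.4, 73.7, 55.1 and 77.7 CPM on day 6 (difference -1.97 ± 0.23, adjusted p = 1.1e-05). Cdkn1b, the CDK inhibitor p27, changed by -1.58 ± 0.14 in culture and -0.47 ± 0.14 after 5-FU (difference -1.11 ± 0.19). Igf2r, the mannose-6-phosphate and IGF2 receptor, differed by -1.75 ± 0.23. Cyp26b1, which breaks down retinoic acid in dormant HSCs, was at 85.8, 91.4, 38.2 and 134 CPM uncultured, 1.53, 1.35, 0.806 and 0.569 CPM cultured, 110.4, 63.9, 49.6 and 52.2 CPM untreated and 10.4, 4.16, 10.2 and 4.06 CPM on day 6 (difference -3.06 ± 0.68, adjusted p = 0.004). The retinoid receptor Rxra fell in culture alone (-1.01 ± 0.15, difference -1.14 ± 0.21).

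Among genes that fell in culture alone, the myosin chaperone Unc45b was at 33.4, 39.3, 39.7 and 38.1 CPM uncultured and 5.88, 2.40, 5.32 and 6.83 CPM cultured, with untreated (44.1, 29.6, 43.01 and 46.2 CPM) and day-6 libraries (41.05, 45.8, 37.5 and 42.6 CPM) in 1 range (difference -2.90 ± 0.27, adjusted p = 5.6e-07). Ccm2l, a vascular signalling adaptor, differed by -2.56 ± 0.18. Its 5-FU change (0.26, adjusted p = 0.072) was called as a rise in 4 of 16 fits that left out 1 library. Gfi1, a repressor that restrains HSC division, differed by -2.74 ± 0.55, and Gas6, the ligand of TAM receptors, by -2.68 ± 0.42. Plac8 differed by -2.52 ± 0.51, and uncultured replicate 1, a library with granulocyte transcripts, was its highest at 60.2 CPM. Granulocyte genes gave lower differences for 4 and higher for 0 of 11, among them the granulocyte colony-stimulating factor receptor Csf3r (-1.73 ± 0.25), which was present in all 4 groups. Over all tested genes the difference was lower for 10.5% and higher for 9.42%. The protease Prtn3 differed by -2.24 ± 0.38 while its control groups differed too (log2 2.05, adjusted p = 1.4e-04), and set directly against day-6 HSCs the cultured level did not pass the test (-0.19, adjusted p = 0.64).

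Immediate early genes, the first to be transcribed after a signal or rough handling, fell in both. Of 32, 1 rose and 26 fell in culture and 3 rose and 25 fell after 5-FU, and the difference was lower for 6 and higher for 2. The shares of all tested genes were 33.5% and 26.2% for falls in culture and after 5-FU, and 10.5% and 9.42% for lower and higher differences. The 2 higher calls became 0 to 3 when 1 library was left out. Fos was at 1183, 468, 696 and 1705 CPM in untreated, 217, 151, 148 and 78.2 CPM in day-6, 650.1, 1765, 418 and 139 CPM in uncultured and 0.118, 0.900, 3.22 and 0.854 CPM in cultured HSCs. Controls spread widely and cultured libraries were all lowest, with a difference of -6.52 ± 1.09 (adjusted p = 3.6e-04). Fosb differed by -5.59 ± 1.49 and Jun by -2.02 ± 0.68, and the call of Jun was lost in 13 of 16 fits that left out 1 library. The growth factor target Klf10 differed by -1.45 ± 0.23. Of 25 inflammatory and NF-kB genes, 16 fell in culture and 13 after 5-FU, and the difference was lower for 5 and higher for 1, with Traf1 at -1.32 ± 0.23 and Bcl3 at -1.39 ± 0.32.

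The other lists held calls in both directions or few calls, where 9.42% of all genes were called higher and 10.5% lower. The difference was higher for 6 and lower for 5 of 35 genes of cytokine and JAK-STAT feedback, and for 6 and 1 of 26 of the hypoxia response. It was higher for 8 and lower for 5 of 34 cytoskeleton, S100 and annexin genes, for 1 and 4 of 19 TGF-beta, BMP and ID genes, for 3 and 4 of 22 genes of the MYC network and polyamine synthesis, and for 3 and 3 of 36 genes of autophagy and the lysosome. Retinoic acid genes gave 0 higher and 3 lower of 10, and CDK inhibitors 0 and 1 of 5. The higher calls of the hypoxia list became 3 and 2 without cultured replicates 3 and 4, and 1 without the 4 libraries with most granulocyte or macrophage transcripts. The lower calls of cytokine feedback became 9 without uncultured replicate 1, and those of autophagy 1 without untreated replicate 1.

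Lists of other blood and stromal cells were read beside the marker sums given above. Among all tested genes 33.5% fell in culture and 26.2% after 5-FU. The difference was higher for 9.42% of them and lower for 10.5%. Megakaryocyte and platelet genes fell in 14 of 23 in culture and 13 after 5-FU, and the difference was higher for 4 and lower for 3. Erythroid genes fell in 17 of 24 in culture and 18 after 5-FU, with medians of -3.71 and -3.88, or -2.61 after 5-FU with the 5 genes that had a group at 0 put at their bound. Their difference was higher for 4 and lower for 2. Lymphoid genes gave 0 higher and 3 lower of 6, mast cell genes 0 and 1 of 3, and stromal genes 0 and 1 of 9. Without uncultured replicate 2 the higher calls of the megakaryocyte list became 9. Without uncultured replicate 3 its lower calls became 5, the higher calls of the erythroid list 7 and the lower calls of the stromal list 3. The part of other cells' RNA in these lists was not tested.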

How the data were processed

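RNA-seq libraries were prepared by the authors from 100 sorted cells each with Nextera XT, per the labels' protocols. Per the submitters' processing notes reads were placed on mm10, with the aligner and counter not given in the sources used here. The deposited files hold, per the file headers, counts of total exon reads, unique exon reads and intron reads for each gene entry. Total exon read counts of 48737 entries were summed to 46113 gene identifiers, of which 21991 had an exon, and strand was not stated.

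The 16 libraries of 4 groups were fitted together with edgeR 4.0.16 in R 4.3.3 (filterByExpr, TMM, group means, quasi-likelihood F test, Benjamini-Hochberg over 12981 genes). Levels are CPM on TMM-scaled sizes, given as mean ± SD or per library in the order of the replicate numbers. Values written with ± after a log2 change are its standard error. Where a gene had no read in a group, the bound used 3 counts per library. Library totals of 5.21 to 9.11 M exon reads set the precision of low genes, and replicates differed by more than sampling noise (chi-square per degree of freedom 2.44 to 17.3), so none was counted as a copy of another.

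The comparison, the 48 gene lists (1345 genes) and the members named were chosen with earlier results of these data known. Genes were named by rule: up to 6 in each opposed class, ranked by the smaller change, 5 in each class called in 1 experiment and 3 in each shared class, ranked by the difference, and 3 for each list by the smallest p, with a group mean of at least 32 CPM and groups apart in the classes. That gave 161 genes, and 18 more were chosen after their values were seen, among them Sqle, Srebf2, Fasn, Scd2, Egfl7, Mrc1, C1qb, Runx1, Cd34, Mki67, Csf2rb, Mecom, Jun and Itgal. Acacb, Acads, Acadvl, Echs1 and Txn1, and names that spell out a count, were also picked after values were seen. Results on a few genes are not reported here.

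In simulated counts built on these libraries (12819 genes), the difference of changes was recovered for 23.9% of 67 genes changed 1.5-fold, 41.8% of 67 changed 2-fold and 77.3% of 66 changed 4-fold, with 8 false calls among 103 (7.77%). Promoter windows came from RefSeq (GRCm38.p6), matched by gene identifier, and 9 motifs were searched on both strands. Same-numbered libraries did not deviate together (correlations of -0.020 to 0.098 after 5-FU and -0.018 to 0.006 in culture), so replicate numbers were not used as pairs. Alternatives were RLE scaling, library size only, no filter, DESeq2 1.42.0, unique exon reads, intron reads, entries not summed, all 30 libraries, pooled controls, a replicate block, each library left out and 4 libraries left out together. The other 14 libraries entered only the fit of all 30.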

Additional observations from a re-analysis of the deposited data

Results flagged for a closer look

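Each group of 4 libraries was examined for a library far from the other 3, over the genes whose values are given per library, the summed marker lists and the library measures. Of 192 groups examined 12 held one (6.25%), and chance gives about 1 in 20.

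Day-6 replicate 1 stood apart in summed macrophage and monocyte genes (4229 CPM against 569.4 to 897.7 CPM), in Lgmn (142.8 CPM against 11.54 to 28.24 CPM) and in Slc40a1 (260.2 CPM against 13.51 to 49.15 CPM). Day-6 replicate 3 stood apart in summed megakaryocyte and platelet genes (2338 CPM against 1933 to 1987 CPM) and in the share of gene reads in introns (56.2% against 57.87 to 58.01%). Untreated replicate 3 stood apart in summed granulocyte genes (2492 CPM against 438.6 to 528 CPM), and untreated replicate 1 in Zbtb16 (166.4 CPM against 25.92 to 39.97 CPM).

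In uncultured HSCs, replicate 1 stood apart in summed stromal genes (713.9 CPM against 322.7 to 354.9 CPM), replicate 2 in summed lymphoid genes (691.1 CPM against 622.4 to 629.4 CPM), replicate 3 in Slc40a1 (17.9 CPM against 8.475 to 9.344 CPM) and replicate 4 in Ccnd1 (98.4 CPM against 63.41 to 68.37 CPM). Cultured replicate 1 was low in Zbtb16 (21.42 CPM against 27.6 to 27.74 CPM).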

How the results depend on the processing

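The number of genes with a called difference lay within 1.5 times of 2580 with RLE factors (2601), library size only (2554), no filter (2373), DESeq2 (2846), unique exon reads (2356), entries not summed (2560) and all 30 libraries (2037). Intron reads gave 1394 (551 higher, 843 lower), of which 823 were also called from exon reads, 818 with the same sign. From intron reads 3943 genes were called after 5-FU (1996 up, 1947 down), and 52 and 66 genes were opposed, up and down in culture. By library size only, 48 genes were up in culture and down after 5-FU. With controls pooled, which sets cultured directly against day-6 HSCs, 5155 differed (2691 higher, 2464 lower), and 139 and 170 were opposed. With the replicate block the count was 2232, of which 2131 were shared. Leaving out 1 library gave 2045 to 2574 differences (835 to 1180 higher, 1190 to 1435 lower), 8296 to 8788 culture changes, 6545 to 7258 changes after 5-FU, and 57 to 84 and 93 to 130 opposed genes. Without the 4 libraries that carried most granulocyte or macrophage transcripts, chosen after the data were seen, the count was 1865 (1652 shared). The causes of these shifts were not tested. From intron reads 93 of 172 named differences kept their direction and side of the threshold, 67 lost their call and 12 changed sign. Of 179 named differences, calls were lost for 19 with all 30 libraries and for 17 without the 4 libraries. Named differences that changed sign were, from intron reads, Tpm4 (0.18), Zbtb16 (-0.14), Gpsm2 (0.0405), Uqcrq (-0.40), Mat2a (-0.16), Sesn2 (0.59), Hsp90aa1 (-0.33), Mybbp1a (-0.48), Odc1 (-1.21), Smad5 (0.12), H2-K1 (-0.038) and Mki67 (0.14), from unique exon reads Pgd (-0.53), and with pooled controls Pdha1 (0.0113), Rpl30 (-0.0749) and Mki67 (0.0405). In at least 1 fit without a library, the calls of Ctss, Ect2, Gata2, Gpsm2, Hyou1, Jun, Kitl, Ndufs8, Pdha1, Pdia6, Spc25 and Uqcrq were lost. Mki67 ranged from -0.46 to 0.17 when 1 library was left out. Exon totals of 5.21 to 9.11 M reads limit what can be said of genes read a few times per library.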
